A study of Mus musculus with 3 samples.

Results

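Chondrogenic mesenchymal cells were sought in 3 single-cell libraries of mouse embryonic thymus, and 233 of 16365 cells met the definition. The cells were selected on measured counts. A cell belonged if it had no UMI of *Epcam* (epithelial cells) or *Ptprc* (hematopoietic cells) and at least 2 UMIs of each of at least 3 of the 5 genes *Col2a1*, *Col9a1*, *Col9a2*, *Col9a3* and *Acan*. A unique molecular identifier (UMI) marks 1 captured RNA molecule. Of the 233 members, 228 came from the library labelled Tbx1neo2/neo2, 1 from the control library and 4 from the Foxn11089/1089 library. The study set hypoplastic thymic lobes beside normal ones, with 1 droplet library (10x Genomics, 3′ gene expression) per genotype. All embryos were on a C57BL/6 background and aged E13 to E13.5, and the lobes were dissected and digested with trypsin. The control was wild type, Tbx1neo2/neo2 embryos were homozygous for a neomycin insertion in an intron of *Tbx1* (a mouse model of 22q11.2 deletion syndrome), and Foxn11089/1089 embryos were homozygous for an allele of *Foxn1*, the transcription factor that thymic epithelium needs. How many embryos and which sexes went into a library is not given in the sources used here. With 1 library per genotype, and members chosen on the same counts, every value below is a description and no test was run. The 95% intervals in brackets cover counting error only.

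Cartilage forms when mesenchymal cells condense, switch on the transcription factor SOX9 with its partners SOX5 and SOX6, and lay down a matrix of type II, IX and XI collagen and the proteoglycan aggrecan. *Col2a1* encodes type II collagen, *Col9a1*, *Col9a2* and *Col9a3* the chains of type IX collagen, which sits on the surface of type II fibrils, and *Acan* aggrecan. In the neck and chest of the embryo, cartilage forms in the rings of the trachea, the larynx, the hyoid, the vertebrae and the ribs, and the thymus itself holds none.

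The 3 libraries held 4962, 3579 and 7824 kept cells (control, labelled Tbx1neo2/neo2, Foxn11089/1089). The members were 0.0202% (0.000510 to 0.112) of the control cells, 6.37% (5.59 to 7.22) of the cells labelled Tbx1neo2/neo2 and 0.0511% (0.0139 to 0.131) of the Foxn11089/1089 cells. Set beside mesenchymal cells only, that is members plus other *Pdgfra*-positive cells, they were 15.2% (13.4 to 17.1) in the library labelled Tbx1neo2/neo2, 0.104% (0.00263 to 0.577) in the control and 0.164% (0.0446 to 0.419) in Foxn11089/1089. Depth differed as well, with medians of 9600, 25453 and 13762.5 UMIs in the other *Pdgfra*-positive cells, and a lower depth makes the definition harder to meet. When every cell was thinned to 2000 UMIs and 1 UMI was asked of each of 3 genes, 0, 88 and 1 cells remained. *Tbx1* had 1.47 CPM (UMIs per 1000000) in the control cells, 5.04 CPM in the cells labelled Tbx1neo2/neo2 and 6.37 CPM in the Foxn11089/1089 cells. It was thus not lower where the label places the hypomorphic allele. The control and Foxn11089/1089 differed as well, and the study states that the embryonic thymus does not express *Tbx1*. These sums over mixed cells therefore do not test the allele, and the library is called by its label throughout. *Foxn1* had 40.3, 36.9 and 90.8 CPM, and counts near the 3′ end do not test the *Foxn1* allele. The library labelled Tbx1neo2/neo2 shared 17 barcodes with the control and 28 with Foxn11089/1089, and 1 of these barcodes was a member.

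**Figure D1:**
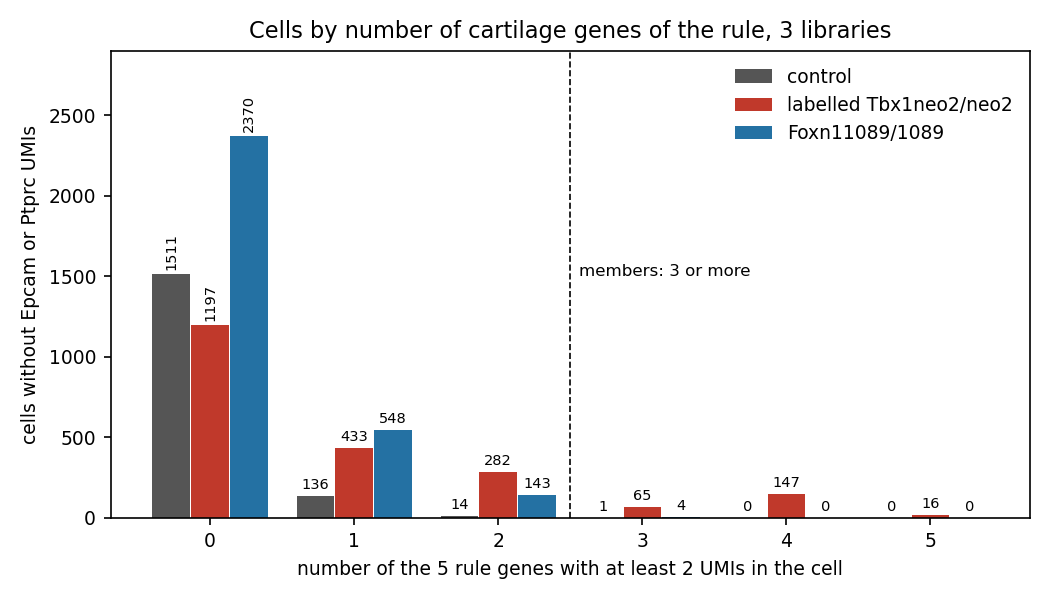
Cells without *Epcam* or *Ptprc* UMIs (y axis, number of cells) by how many of the 5 genes reached 2 UMIs (x axis), in the 3 libraries. To the right of the dashed line, the library labelled Tbx1neo2/neo2 has 65, 147 and 16 cells with 3, 4 and 5 genes, the control 1, 0 and 0, and Foxn11089/1089 4, 0 and 0.

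In the library labelled Tbx1neo2/neo2, the number of cells by how many genes reached 2 UMIs did not fall steadily. It went from 1197 cells with 0 genes to 433 with 1, 282 with 2 and 65 with 3, then up to 147 with 4 and down to 16 with all 5. The control (1511, 136, 14 and 1 cells with 0 to 3 genes) and Foxn11089/1089 (2370, 548, 143 and 4) had no cell with 4 or more. A set of 32 further cells in the library labelled Tbx1neo2/neo2 met the gene criterion but had an *Epcam* or *Ptprc* UMI, as did 5 in the control and 87 in Foxn11089/1089, and these were left out. *Col2a1* alone did not mark the members, since 279 of the 497 kept cells of the library labelled Tbx1neo2/neo2 with at least 2 *Col2a1* UMIs also held *Epcam* UMIs, as did 59 of 64 in the control and 630 of 641 in Foxn11089/1089. No barcode outside the quality limits met the definition in any library.

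The 228 members of the library labelled Tbx1neo2/neo2 had 11096 to 217629 UMIs with a median of 23227, below the 25453 of the 1272 other *Pdgfra*-positive cells and the 29096 of all kept cells of the library. The median mitochondrial share was 6.42% in members and 6.39% in the others. *Col9a3* reached 2 UMIs in 226 members, *Col9a2* in 219, *Col9a1* in 213, *Col2a1* in 189 and *Acan* in 16. The commonest combination, in 147 members, was *Col2a1* with all 3 type IX chains. Another 39 had the 3 type IX chains without *Col2a1*, 16 had all 5 genes, 15 lacked *Col9a1* and *Acan*, 9 lacked *Col9a2* and *Acan*, and 2 lacked *Col9a3* and *Acan*.

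These counts chose the members and are given only to describe them. *Col2a1* (chromosome 15, 97975602 to 98004695, mm10) ranged from 0 to 72 UMIs over the members with a median of 8, and its sum was 3102 UMIs against 191 in the other *Pdgfra*-positive cells, or 515 against 5.46 CPM. Of the other cells, 84 had a *Col2a1* UMI. *Col9a3* (chromosome 2, 180597790 to 180622189) had 485 against 15.7 CPM and a median of 11 UMIs per member. *Col9a1* (chromosome 1, 24177610 to 24252684) and *Col9a2* (chromosome 4, 121039385 to 121055322) were also frequent outside the members, with 66.7 and 54.4 CPM in the other cells against 435 and 344 CPM in members. *Acan* (chromosome 7, 79053483 to 79115099) was sparse, with 61 UMIs in 32 members and at most 7 in a cell. Just inside the threshold, the 65 members with exactly 3 genes had medians of 1 *Col2a1*, 4 *Col9a1*, 4 *Col9a2* and 6 *Col9a3* UMIs. Just outside it, the 282 cells with exactly 2 genes had medians of 0, 3, 3 and 0 UMIs, and 255 of them were *Pdgfra*-positive and count among the comparison cells. As a measure of free RNA, the 197 *Ptprc*-positive cells of the library, at a median depth of 54630 UMIs, had 1.42 CPM of *Col2a1*, 1.24 of *Col9a1* and 1.59 of *Col9a2*. They had 16.0 CPM of *Col9a3*, spread over 68 cells, against 1.80 CPM in barcodes with at least 5% hemoglobin UMIs. In the control, *Ptprc*-positive cells had 17.1 CPM of *Col9a3* in 117 of 546 cells, above the 3.57 CPM of its *Pdgfra*-positive cells. For *Col9a3* the *Ptprc*-positive cells are therefore not taken as a measure of free RNA.

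**Figure D2:**
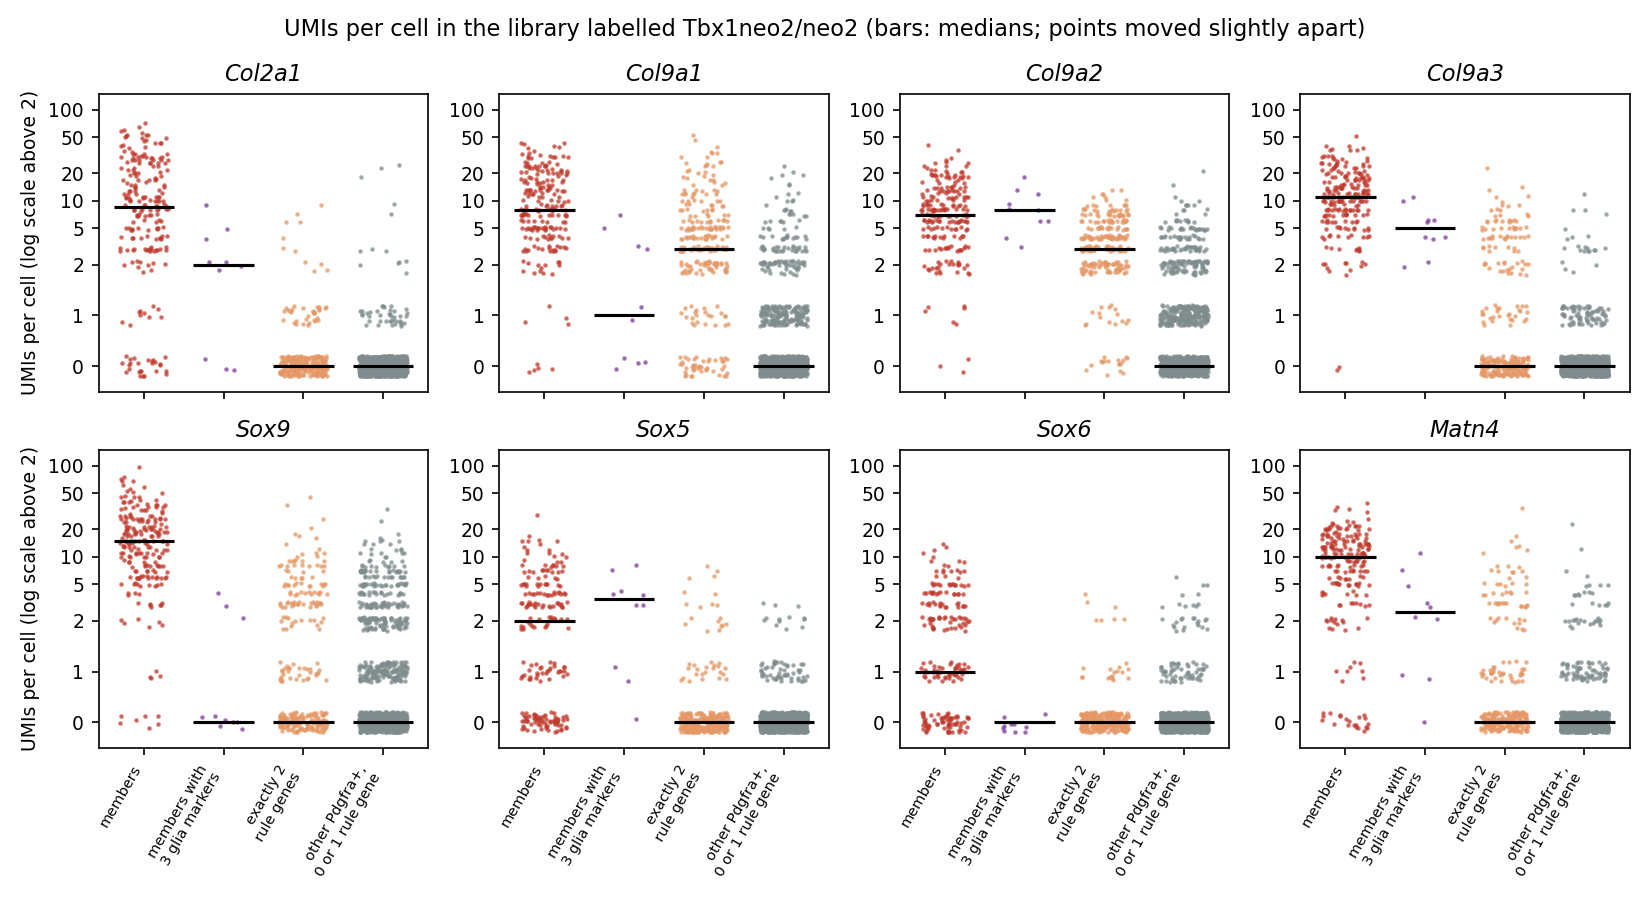
UMIs per cell (y axis, logarithmic above 2 UMIs) of 4 genes of the definition and 4 genes outside it, in the library labelled Tbx1neo2/neo2. Points are cells and bars are medians, for 218 members, 10 members with 3 glia markers, 282 cells with exactly 2 genes and 1017 other *Pdgfra*-positive cells with 0 or 1 gene. *Sox9* and *Matn4*, which did not choose the cells, have medians of 15 and 10 UMIs in the 218 members and of 0 in the other *Pdgfra*-positive cells, with overlapping ranges.

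Of the 228 members, 218 carried no full set of glia markers. The other 10 each had at least 2 UMIs of each of 3 markers of Schwann cells and their precursors, among them the transcription factor gene *Sox10*. *Sox10* ranged from 3 to 22 UMIs in these 10 cells, and none of the other 218 members had 2 UMIs of every marker. The 10 cells were low in *Sox9*, with 9 UMIs in all, and had no UMI of *Sox6*, *Acan*, *Hoxa5*, *Tbx5*, *Tbx4*, *Foxf1*, *Wif1* or *Notum*. They did hold *Col9a2* (3 to 18 UMIs), *Col9a3* (2 to 11), *Sox5* (0 to 8) and *Matn4* (0 to 11). They also held 72.4% of all member UMIs of *Cnmd* (chondromodulin, a cartilage glycoprotein), 58.7% of those of *Cytl1* and 96.7% of those of *Dhh*, the Hedgehog ligand of Schwann cells. The library had 22 further cells with the same 3 markers that were not members, with 143 CPM of *Col9a2* and 289 CPM of *Cnmd*. The 1 member of the control library also had the 3 markers, with 5 *Sox10* UMIs. It held 90 *Col1a1* UMIs, against 0 to 38 in the 10 cells, and was marked as a doublet, as none of the 10 was. Values below are over all 228 members, and the value without these 10 cells is added for some genes and for the lists whose counts it moved.

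Members were next set beside the 1272 other *Pdgfra*-positive cells of the same library, gene by gene over 13453 genes with at least 30 UMIs in all. Of these, 695 genes (5.17%) were at least 2-fold higher in members and 1320 (9.81%) at least 2-fold lower, with a median log2 ratio of 0.03. Without the 10 cells the counts were 648 and 1428 of 13419. Because the members were picked from these same counts, genes that go along with the 5 cartilage genes had to differ. The comparison cells were picked on *Pdgfra*, so genes that go along with it can be lower in members by that choice alone. Nothing about the number of such genes is a result.

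**Figure D3:**
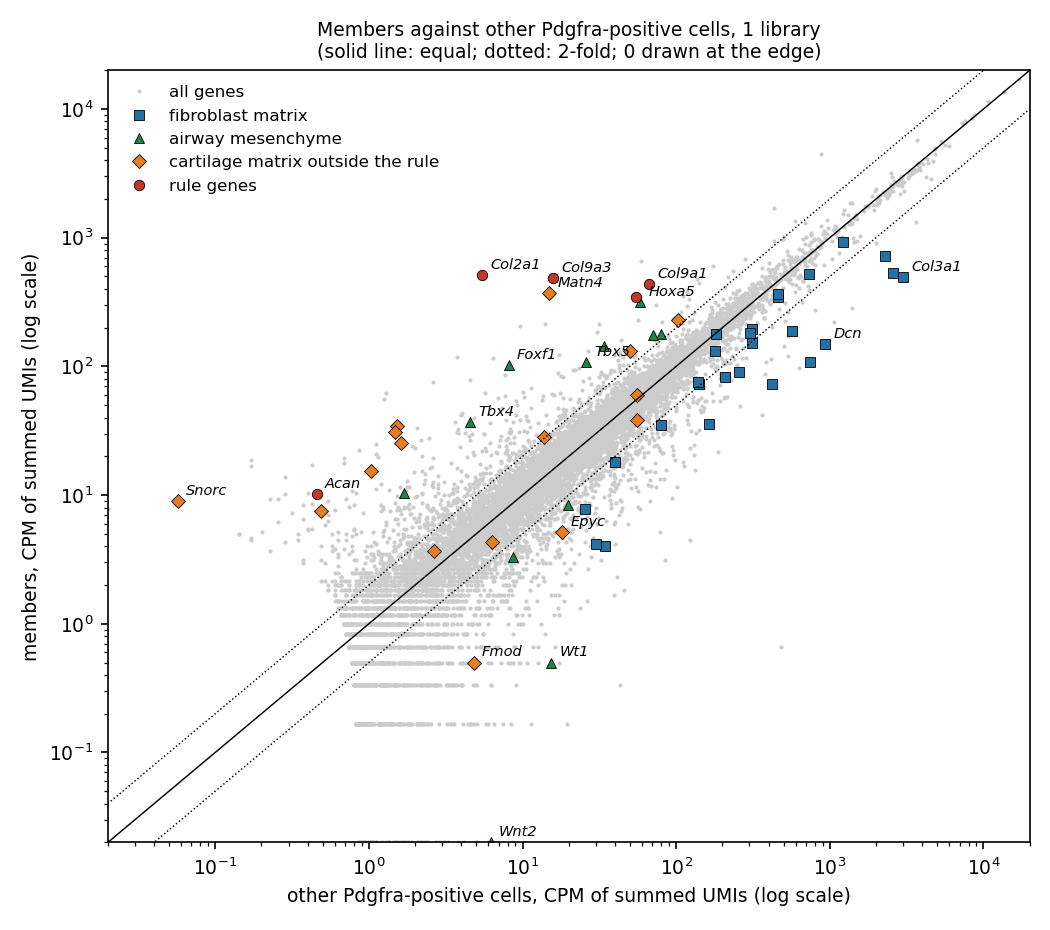
CPM of summed UMIs in the 228 members (y axis, log scale) against the 1272 other *Pdgfra*-positive cells (x axis, log scale) of the library labelled Tbx1neo2/neo2, for 13453 genes. Genes of the definition, 10 of 16 cartilage matrix genes outside it and 8 of 12 airway mesenchyme genes lie above the upper dotted line (2-fold higher), and 16 of 26 fibroblast matrix genes lie below the lower one.

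Among cartilage matrix genes outside the definition, 10 of 16 with enough UMIs were at least 2-fold higher in members and 2 were lower, with a median log2 ratio of 1.28 (1.17 to 1.38) against 0.03 over all genes. Without the 10 cells with glia markers 10 were higher and 3 lower. The median was 2.72 when 13 comparison cells with at least 10 *Ibsp* UMIs were left out and 2.29 against cells with no *Col2a1* or *Col9a3* UMI, so the interval does not cover the choice of comparison cells. *Matn4*, a matrilin that links matrix fibrils, had 2238 UMIs in 206 of the 228 members and 520 UMIs in 187 of the other cells, or 372 against 14.9 CPM. Per cell it ranged from 0 to 39 UMIs in members with a median of 9, and from 0 to 34 in the others with a median of 0, so the groups overlapped. *Snorc*, a proteoglycan of cartilage cells, had 54 UMIs in 19 members and 2 in the others, a log2 ratio of 7.29 (5.37 to 10.37). *Mia* (cartilage-derived retinoic acid-sensitive protein) had a log2 ratio of 3.97 (3.52 to 4.44), *Prelp* 3.91 and *Scrg1* 3.94, from 154, 93 and 45 UMIs in members. *Cnmd* went from 4.37 with all members to 2.59 without the 10 cells with glia markers, and *Cytl1* from 4.50 to 3.30. The fibrillar collagen genes *Col27a1*, *Col11a1* and *Col11a2* were higher at 1.40, 1.16 and 1.03 (0.77 to 1.29 for *Col11a2*).

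Other genes of mature cartilage were scarce or lower. *Hapln1*, the link protein that ties aggrecan to hyaluronan, had 26 UMIs in 11 members and a log2 ratio of -0.54 (-1.19 to 0.05). *Epyc* (epiphycan) was lower at -1.81 (-2.38 to -1.29) and *Fmod* (fibromodulin) at -3.27. *Matn1*, *Clec3a*, *Matn3*, *Comp* and *Ucma* had 0 UMIs in the 228 members, a count that allows up to 3 UMIs of the 6021490 in them. Of hypertrophic genes, *Col10a1* and *Mmp13* were also at 0, *Ihh* had 1 UMI and *Spp1* 1, and 1 of 8 genes with enough UMIs (*Fgfr3*) was higher and 4 were lower (*Spp1*, *Ibsp*, *Alpl* and *Panx3*). Of 7 osteoblast genes 6 were lower and 0 higher. *Ibsp*, bone sialoprotein, had 16714 UMIs in the others and 4 in members, and 13 of the 1272 other cells held 99.7% of them. Those 13 cells also held 96.7% of the *Ifitm5* and 48.7% of the *Col2a1* UMIs of the comparison. Without them the log2 ratio of *Ibsp* went from -9.49 to -1.04 (-2.97 to 0.41), and that of *Sp7*, the osteoblast transcription factor osterix, from 0.46 to 1.75 (1.32 to 2.18).

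The SOX trio that drives chondrogenesis was higher in members. *Sox9* (chromosome 11, 112782224 to 112787760) had 3998 UMIs in 214 of 228 members and 2049 in 544 of the other cells, or 664 against 58.6 CPM, a log2 ratio of 3.50 (3.42 to 3.58). Per cell it ran from 0 to 97 UMIs with a median of 14 in members, and from 0 to 45 with a median of 0 in the others. *Sox5* had 118 against 3.75 CPM (log2 4.98, 4.70 to 5.26) and *Sox6* 78.7 against 4.58 CPM (4.10, 3.84 to 4.37). They were seen in 69.3% and 65.8% of members, and in 20.2% and 15.8% after thinning to 2000 UMIs, against 0.55% and 1.42% of the thinned other cells. Of the whole list of 25 chondrogenic regulators with enough UMIs, 9 were higher, 3 lower and 13 within 2-fold, with a median of 0.28. *Msx2*, a homeobox gene of skull and limb mesenchyme, was higher at 3.42, and *Trps1*, a zinc finger regulator of chondrocytes, at 1.17. *Runx2*, which drives hypertrophy and bone, stood at -0.07 and *Prrx1* at -0.32, while *Barx1*, a homeobox gene of pharyngeal and stomach mesenchyme, was lower at -1.62. *Pax1* stood at -0.31, and *Nkx3-2* and *Uncx* of the sclerotome, the source of vertebrae and ribs, had 0 UMIs in members. Of 7 sclerotome and somite genes 4 were lower and 0 higher, with *Tbx18* at -4.13.

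Promoter sequence was looked up for the 18 genes of the definition and of the 15 with the highest ratios, and RefSeq windows (GRCm38.p6) were found for 12 of them, with 19 start sites in all. SOX proteins bind short sites such as ACAATG and ACAAAG. In the 250 bases before the start, read on both strands, ACAATG stood in 3 of the 19 windows (15.8%) and in 10.7% of 32851 windows of all genes, and ACAAAG in 5 of 19 (26.3%) and in 16.5%. All of these windows belonged to *Sox5* and *Sox6*, and *Sox6* alone has 6 of the 19 windows. A match is a description of letters only. The windows of a collagen gene of the definition, of *Matn4* and of *Sox5* are shown 5′ to 3′ in the direction of the gene, in lower case with the SOX letters in capitals.
Col9a2 (chr4:121039316-121039565, + strand): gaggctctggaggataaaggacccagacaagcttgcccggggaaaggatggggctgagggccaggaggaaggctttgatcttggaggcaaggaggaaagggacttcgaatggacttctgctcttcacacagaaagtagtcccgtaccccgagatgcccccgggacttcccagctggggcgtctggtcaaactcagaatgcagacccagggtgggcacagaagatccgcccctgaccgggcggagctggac
Matn4 (chr2:164405161-164405410, - strand): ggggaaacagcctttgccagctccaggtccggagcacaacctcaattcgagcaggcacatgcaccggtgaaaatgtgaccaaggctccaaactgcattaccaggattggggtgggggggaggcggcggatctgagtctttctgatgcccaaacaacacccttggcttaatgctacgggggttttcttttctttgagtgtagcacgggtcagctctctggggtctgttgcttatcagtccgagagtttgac
Sox5 (chr6:143947107-143947356, - strand): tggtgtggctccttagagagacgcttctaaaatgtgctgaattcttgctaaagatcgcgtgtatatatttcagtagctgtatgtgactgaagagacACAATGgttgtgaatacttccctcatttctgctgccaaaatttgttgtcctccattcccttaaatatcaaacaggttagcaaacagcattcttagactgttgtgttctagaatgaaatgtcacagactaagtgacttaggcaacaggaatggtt
The ACAATG of *Sox5* begins 154 bases before the start, and neither motif occurs in the other windows shown. The *Col9a2* window runs past the start of the annotated gene, so part of it lies inside the gene. The *Matn4* window ends next to the annotated gene (chromosome 2, 164389393 to 164405160), and the *Sox5* window lies before a start site inside the gene (chromosome 6, 143828425 to 144781977).

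Some transcription factors of the mesenchyme around trachea and lung were higher in members, though part of the other cells held them too. TBX4 and TBX5 are T-box factors of lung and tracheal mesenchyme, FOXF1 a forkhead factor that Hedgehog signals maintain there, and HOXA5 a homeobox factor needed for tracheal cartilage. *Foxf1* (chromosome 8, 121084386 to 121088144) had 102 against 8.12 CPM, a log2 ratio of 3.65 (3.45 to 3.86), with UMIs in 132 members and 0 to 37 per cell. *Tbx4* had 36.7 against 4.58 CPM (log2 ratio between 2.70 and 3.31), *Tbx5* 109 against 25.8 CPM (2.07, 1.92 to 2.22) and *Hoxa5* 316 against 58.0 CPM (2.44, 2.35 to 2.54). *Hoxa5* was present in 211 of 228 members, with a median of 7.5 UMIs, and in 371 of 1272 other cells. Its share after thinning was 40.8% against 9.59%. *Ptprc*-positive cells, at a median depth of 54630 UMIs, held *Hoxa5* in 9.14% of cells without thinning (3.98 CPM), *Tbx5* in 2.54%, *Tbx4* in 2.03% and *Foxf1* in 1.52%. These 4 genes are all among the higher ones of the airway list below, so counting them leaves out its lower genes. At least 3 of the 4 were found in 157 of the 228 members (68.9%, 62.4 to 74.8). The same held for 95 of the 1272 other cells (7.47%, 6.08 to 9.05). None of the 10 cells with glia markers had any of the 4, so the share in the rest was 72.0% (65.6 to 77.9). Cells with exactly 2 cartilage genes lay between, at 50 of 282 (17.7%, 13.5 to 22.7). Of the list of 12 airway mesenchyme genes with enough UMIs, 8 were higher and 4 lower, with a median of 1.68. *Tbx2*, *Tbx3* and *Tcf21* were higher at 1.30, 2.08 and 1.17. *Foxf2*, too sparse to be among the 12, had 22 UMIs in 19 members and 0 in the other cells. That is at least 5.41 higher on the log2 scale with the 0 set to 3 counts. *Nkx2-1* is counted among the 8 higher genes of the list, although it is a factor of thyroid and airway epithelium. It was higher at 2.61, from 62 UMIs in 14 members. The lower ones were *Wnt2* (0 UMIs in members and 217 in the others, at least 3.64 lower), *Wt1* (-4.95), *Wnt4* (-1.37) and *Rspo2* (-1.25), ligands and a mesothelial factor of developing lung and body wall.

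**Figure D4:**
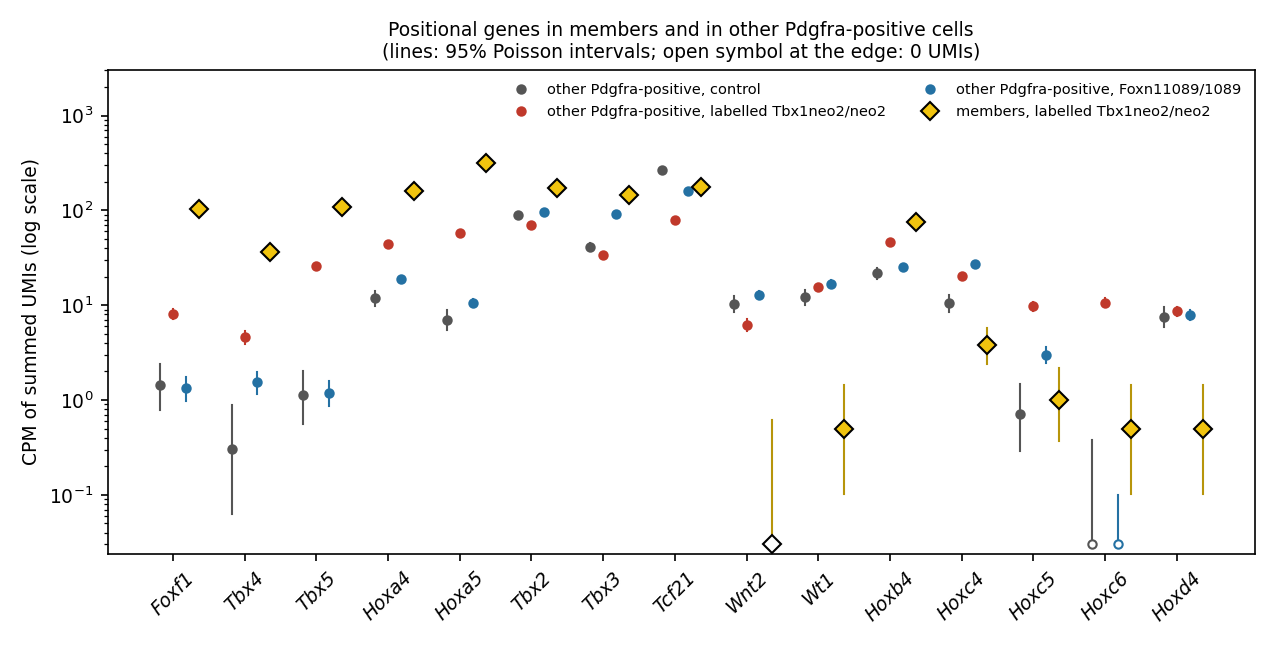
CPM of summed UMIs (y axis, log scale) of 15 positional genes in the 228 members (diamonds) and in the other *Pdgfra*-positive cells of the 3 libraries (circles), with 95% Poisson intervals. *Foxf1*, *Tbx4*, *Tbx5* and *Hoxa5* are highest in members, next in the other cells of the library labelled Tbx1neo2/neo2 and lowest in the control and Foxn11089/1089. *Hoxc4* to *Hoxc6* and *Hoxd4* run the other way between the members and the other cells of their library.

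Hox genes record position along the body axis. Of 16 with enough UMIs 2 were higher, 6 lower and 8 within 2-fold, with a median of -0.78. *Hoxa4* and *Hoxa5* were the 2 of 16 that were at least 2-fold higher in members, *Hoxa4* at 1.88. *Hoxc4*, *Hoxc5*, *Hoxc6*, *Hoxd3*, *Hoxd4* and *Hoxd8* were the 6 that were lower, between -2.43 for *Hoxc4* and -4.87 for *Hoxd3*. Those within 2-fold included *Hoxa2* (0.71), *Hoxa3* (0.73), *Hoxa7* (-0.70), *Hoxb2* (-0.80), *Hoxb3* (-0.03), *Hoxb4* (0.70) and *Hoxb5* (-0.77). In *Hoxa5* the other *Pdgfra*-positive cells of the library labelled Tbx1neo2/neo2 already had 58.0 CPM (55.5 to 60.6), against 7.04 (5.48 to 8.91) in the control and 10.5 (9.48 to 11.6) in Foxn11089/1089. *Tbx5* had 25.8 CPM there (24.2 to 27.6) against 1.12 (0.56 to 2.01) and 1.19 (0.865 to 1.60), and *Foxf1* 8.12 (7.21 to 9.13) against 1.43 (0.781 to 2.40) and 1.33 (0.98 to 1.75). *Hoxc6* had 10.7 CPM there and 0 UMIs in both other libraries. After thinning to 2000 UMIs, *Hoxa5* was seen in 9.59%, 1.25% and 1.43% of these cells (labelled Tbx1neo2/neo2, control, Foxn11089/1089), and *Tbx5* in 4.40%, 0.415% and 0.205%.

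Signalling genes were described by pathway. WNT inhibitors went in both directions. *Wif1*, a secreted protein that binds WNT ligands, was higher, with 205 against 9.58 CPM (log2 4.42, 4.24 to 4.60). *Notum*, a secreted esterase that strips the lipid WNT ligands need, had 75.4 against 2.60 CPM (4.86, 4.53 to 5.20). *Notum* was held by fewer cells, 72 members and 19 others, with 0 to 25 UMIs per member. *Lef1* and *Axin2*, which WNT signals switch on, were higher at 3.34 and 1.59, and *Wnt5a* at 1.34. *Sfrp5*, another secreted WNT inhibitor, was higher at 3.67, while other inhibitors were lower, with *Sfrp1*, *Sfrp2*, *Frzb* and *Dkk1* at -2.41, -2.25, -2.02 and -5.30. Over the 23 genes of the WNT list with enough UMIs, which does not hold *Notum*, 6 were higher and 6 lower, with a median of -0.03. Without the cells with glia markers 5 of 22 were higher and 6 lower.

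Receptors for fibroblast growth factors differed by type. *Fgfr2* was higher in members at 3.46 (3.28 to 3.64), *Fgfr3*, the receptor that restrains growth of cartilage, at 3.09 (2.76 to 3.42), and *Fgfr4* at 3.67, while *Fgfr1* stood at -0.06 (-0.18 to 0.07). Ligands were lower, *Fgf18* at -3.38, *Fgf7* at -3.05 and *Fgf10* at -1.98. *Etv5*, a target of these signals, was higher at 1.92, whereas *Etv4*, *Spry1*, *Spry2* and *Spry4* were between -1.46 and -2.07. Of the 16 FGF genes 5 were higher and 8 lower, with a median of -0.69. Of 14 Hedgehog and PTHrP genes 5 were higher, 1 lower and 8 within 2-fold, with a median of 0.57, or 0.37 without the cells with glia markers. The ligand-binding targets *Ptch1* and *Hhip* were higher at 1.81 and 2.81, and *Gli1* at 1.10. *Gas1*, a co-receptor, was lower at -1.64. *Shh* and *Ihh* had 1 UMI each in members, and *Dhh* was carried by the cells with glia markers. Of 38 BMP and TGF-beta genes 5 were higher and 8 lower (9 without the cells with glia markers), with a median of -0.02. *Gdf5*, a BMP family ligand of joints and condensations, had 238 UMIs in 108 members (3.04, 2.75 to 3.33), the BMP antagonist *Nog* stood at 1.44 and the BMP target *Id2* at 1.18. *Erg* and *Scx*, factors of joint cartilage and tendon, were higher at 3.05 and 2.41, and *Tnmd* of mature tendon was lower at -2.19. Of the 12 tendon and joint genes 4 were higher and 7 lower. *Isl1*, a LIM homeobox gene of pharyngeal mesoderm, was higher at 2.66. It was 1 of 2 higher genes among 20 of the pharyngeal arches and neural crest, of which 10 were lower. *Tbx1* was among the lower ones, with 8 UMIs in members and 205 in the others (-2.14).

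Members had less of the collagens of loose connective tissue. Of 26 fibroblast matrix genes 16 were at least 2-fold lower and 0 higher, with a median of -1.27 (-1.44 to -1.10), and 15 were lower without the cells with glia markers, with a median of -1.41. *Col1a1* had 531 against 2565 CPM (-2.27, -2.32 to -2.22), *Col3a1* 497 against 2976 CPM (-2.58), the small proteoglycans *Dcn* and *Lum* -2.65 and -2.77. Per cell, *Col1a1* ran from 0 to 152 UMIs with a median of 5 in members, and from 0 to 3380 with a median of 43 in the others. *Pdgfra* itself, which chose the comparison cells, was found in 156 members (68.4%). Fibroblast genes that go along with *Pdgfra* may thus be lower in members through that choice, and its part was not tested. *Eln* and *Fbn2* stood at -0.47 and -0.33, within 2-fold. Enzymes that fold and cross-link collagen were within 2-fold for 26 of 34 genes and lower for 8, among them *Creb3l1* (-2.54) and *Lox* (-1.67). Enzymes that build chondroitin chains were within 2-fold for 23 of 28, with *Ust*, *Dse* and *Has2*, the hyaluronan synthase, higher at 1.74, 1.19 and 1.17.

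*Mgp* encodes matrix Gla protein, which keeps cartilage and vessel walls from calcifying. It had 27081 UMIs in 220 of the 228 members and 30519 in 862 of the 1272 others, or 4497 against 873 CPM (2.36, 2.34 to 2.39). The *Ptprc*-positive cells of the library, at a median depth of 54630 UMIs, held *Mgp* in 38.6% of cells and at 38.7 CPM. A share of cells with an *Mgp* UMI near that level may therefore be background. These cells were deeper than the members, and whether their *Mgp* is free RNA was not tested. The members were 6.37% of the kept cells and held 4.73% of their UMIs, but 31.9% (31.5 to 32.2) of the *Mgp* UMIs. They held 65.9% (64.5 to 67.3) of the *Col2a1* UMIs by choice, and outside the definition 71.4% of *Matn4*, 74.4% of *Notum*, 69.0% of *Wif1*, 47.7% of *Foxf1* and 41.4% of *Sox9*. Over all mesenchymal cells of the library, *Mgp* had 1406 CPM with the members and 873 without them, against 115 CPM in the control *Pdgfra*-positive cells, or 3.61 and 2.92 higher on the log2 scale. For *Sox9* that difference from the control went from 2.07 to 0.74 when the members were left out, for *Sox5* from 3.07 to 0.61 and for *Sox6* from 2.29 to 0.53. For *Eln*, *Fbln5*, *Col1a2* and *Col3a1* it moved little and upward, from 3.65 to 3.71, 3.77 to 3.85, 1.17 to 1.32 and 0.21 to 0.39. The values with members set members plus *Pdgfra*-positive cells beside *Pdgfra*-positive cells only in the control. Leaving out cells chosen for cartilage genes lowers genes that go along with them, so the falls of the SOX genes follow from that choice. Of the 19 matrix and related genes that the study names for mesenchyme, *Mgp* and *Capn6* (1.47) were at least 2-fold higher in members and 7 were lower.

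Cell cycle genes differed little, apart from *Ccnd1*. All 20 G1/S genes and all 20 G2/M genes lay within 2-fold, with medians of 0.24 and 0.25. Cells with at least 2 of the 20 G2/M genes after thinning to 2000 UMIs were 27.6% (21.9 to 33.9) of members and 22.4% (20.1 to 24.8) of the others, and 63.6% and 71.6% without thinning. *Ccnd1*, cyclin D1, was higher at 1.79 (1.73 to 1.86), and the cell cycle inhibitor *Cdkn1c* stood at -0.39. Of 21 genes of glycolysis and the response to low oxygen 5 were higher and 0 lower, with a median of 0.47. The 5 were *Bnip3* (1.64), the glucose transporter *Slc2a1* (1.38), *Eno1* (1.24), *Pfkl* (1.15) and *Ldha* (1.14).

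Ranked by size among 9307 genes, the 15 with the highest ratios included *Col2a1*, *Gria2*, *Sox5*, *Col9a3*, *Notum*, *Matn4*, *Wif1*, *Spsb4*, *Sox6*, *Wwp2*, *Foxf1*, *Sox9*, *Slitrk6* and *Fgfr2*. *Gria2*, a subunit of glutamate receptors, had 337 UMIs in 105 members and 44 in 27 of the others (5.47, 5.02 to 5.96). *Wwp2*, a ubiquitin ligase known in cartilage, had 1290 UMIs in 196 members and 488 in 333 of the others (3.94, 3.79 to 4.09), and *Spsb4* 705 in 171 members and 224 in 164 (4.19). The 15 lowest included *Ibsp*, *Ifitm5*, *Smpd3*, *Fam162b*, *C1qtnf7*, *Wt1*, *Adam33*, *Shisa3*, *Ccdc3*, *Cgref1*, *Ndufa4l2*, *Hoxc6* and *Ahnak2*. The first 3 rested on the 13 cells with *Ibsp*. *Shisa3*, by contrast, was spread over 576 of the other cells (4284 UMIs) and 11 members (27 UMIs).

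The members varied among themselves. The 218 without glia markers were ordered by their *Col2a1* CPM and cut into groups of 73, 73 and 72 cells. From the lowest to the highest group, *Sox9* had 325, 662 and 1308 CPM, *Sox5* 25.9, 93.4 and 290, *Matn4* 132, 414 and 729, *Fgfr3* 5.80, 19.7 and 96.0, and *Notum* 0.446, 28.8 and 266. *Acan* was found in 1.37%, 4.11% and 38.9% of these cells and *Snorc* in 0%, 1.37% and 25%. *Mgp* had 2675, 5118 and 7347 CPM. The fibroblast genes ran the opposite way, with *Dcn* at 303, 100 and 6.71 CPM, *Col1a1* at 1011, 265 and 193 and *Pdgfra* at 223, 68.7 and 38.9. *Hoxa5* was found in 91.8%, 98.6% and 100% of the cells, and had 272, 313 and 451 CPM. *Mki67*, a marker of dividing cells, was seen in 37.0%, 39.7% and 16.7%. The median depth of the groups was 27139, 21862 and 18959.5 UMIs, so the cells highest in *Col2a1* were the shallower ones, and the part of depth in these shares was not tested. Across the 218 cells the Spearman correlation of *Col2a1* CPM was 0.80 with *Matn4*, 0.70 with *Sox5*, 0.66 with *Sox9*, 0.67 with *Notum*, 0.31 with *Hoxa5*, 0.29 with *Foxf1*, -0.61 with *Pdgfra* and -0.59 with the summed fibroblast matrix. With the total UMIs of the cell it was -0.55. These cells share 1 library, and CPM values share each cell's total. *Col2a1* is also a gene of the definition, and cells low in it entered only through the other genes of the definition. The order and the correlations therefore describe the chosen cells and are no separate support for their identity.

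**Figure D5:**
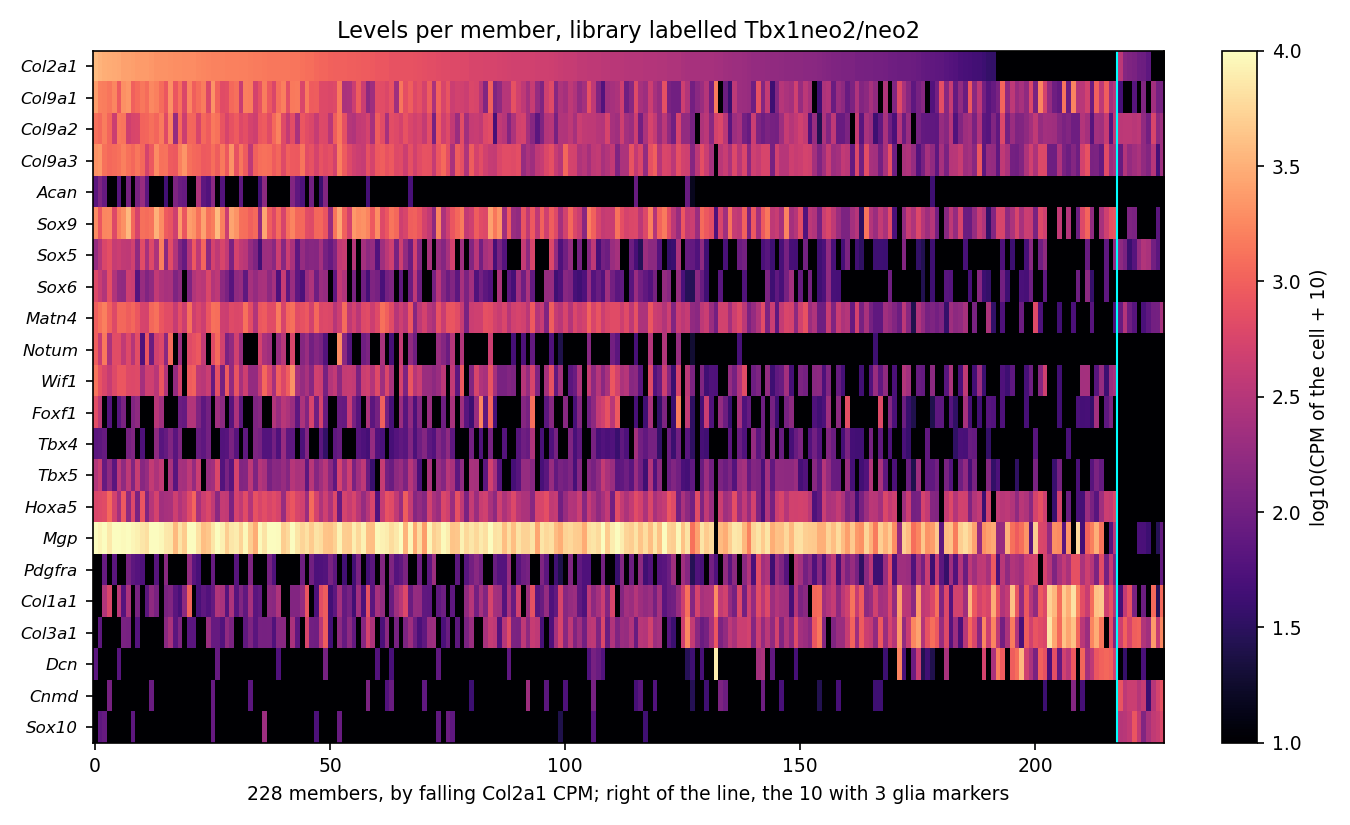
Levels of 22 genes (rows) in the 228 members (columns) as log10 of CPM plus 10, ordered by falling *Col2a1*. *Acan* and *Notum* are mostly at the left, *Dcn* and *Col1a1* brighten to the right, *Hoxa5* and *Mgp* run through nearly all of the first 218 cells, and the 10 cells to the right of the line carry *Sox10* and *Cnmd* and lack *Hoxa5*.

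Markers of other cell types were counted over the members. Notochord markers were close to 0, with *T* and *Noto* at 0 UMIs and *Shh* at 1. The 3 smooth muscle markers (*Acta2*, *Tagln*, *Myh11*) summed to 356 CPM in members and 678 in the others, and 10 members held 95.6% of them, with 0 to 502 UMIs per member. The 3 endothelial markers summed to 61.6 against 32.9 CPM, with 355 of their 371 UMIs in 1 member. The 3 tendon markers (*Scx*, *Tnmd*, *Mkx*) summed to 34.0 against 9.70 CPM, with 0 to 16 UMIs per member, and 2 of the 3 were higher and 1 lower. Hematopoietic markers summed to 3.49 against 3.20 CPM, with *Ptprc* at 0 by choice. Skeletal muscle markers summed to 7.47 against 10.6 CPM and neuron markers to 9.63 against 15.3 CPM. Epithelial markers summed to 26.7 against 21.1 CPM, with *Epcam* at 0 by choice. Leaving out the highest doublet scores removed 9 of the 228 members and none of the 10 with glia markers.

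Cells with at least 10000 UMIs were called male or female from Y-linked genes and *Xist*. Of the members 195 were called male, 2 female and 31 neither, so 1.02% (0.123 to 3.62) of called members were female. In the other *Pdgfra*-positive cells of the library 116 cells were called female and 958 male (10.8% female, 9.01 to 12.8), and in all its kept cells 413 and 2377 (14.8%, 13.5 to 16.2). Sex thus moved with membership, and its part in the values above was not tested. With male cells only on both sides (195 and 958 cells), 659 genes were at least 2-fold higher and 1268 lower of 13149.

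The members of the other libraries were few and unlike these. The 4 Foxn11089/1089 members had 17812 to 34434 UMIs each, with 3 to 11 UMIs of *Col9a1*, 2 to 4 of *Col9a2*, 1 to 5 of *Col9a3* and 0 to 6 of *Col2a1*. They had 0 to 8 UMIs of *Sox9*, 1 to 20 of *Pdgfra*, and 0 UMIs of *Hoxa5*, *Tbx4*, *Tbx5*, *Foxf1*, *Wif1*, *Notum*, *Sox5*, *Sox6* and *Mgp*. In the other *Pdgfra*-positive cells *Col2a1* had 5.46 CPM (4.72 to 6.30) in the library labelled Tbx1neo2/neo2, 0.51 (0.166 to 1.19) in the control and 1.05 (0.75 to 1.44) in Foxn11089/1089. *Col9a1* had 66.7, 31.7 and 51.9 CPM, *Col9a2* 54.4, 28.6 and 42.7, and *Col9a3* 15.7, 3.57 and 2.19. After thinning to 2000 UMIs, *Col9a2* was found in 7.15%, 7.17% and 9.30% of these cells and *Col9a3* in 2.59%, 0.519% and 0.287%. Type IX collagen RNA was thus present in mesenchyme of all 3 libraries, with *Col2a1* and *Col9a3* scarce in the mesenchyme outside the members. With 1 library per genotype, a difference between libraries cannot be told apart from how the lobes were dissected, pooled or sequenced.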

How the data were processed

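The authors used Cell Ranger 3.0.0 with the mouse genome mm10, and deposited raw UMI counts per gene and barcode for 1 library per genotype, without normalization. They clustered the cells with Seurat, and no cluster labels were used here. Barcodes needed 200 genes, 2000 UMIs, under 20% mitochondrial and under 5% hemoglobin UMIs, which left out 1448, 2180 and 4623 of 6410, 5759 and 12447 barcodes. The libraries held 82936619, 137498422 and 204655055 UMIs. Members followed the definition in the report, and the comparison cells were non-members with at least 1 *Pdgfra* UMI and no *Epcam* or *Ptprc* UMI.

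For each group of cells the UMIs of a gene were added up and scaled to 1000000 (CPM), and log2 ratios of genes with at least 30 UMIs were called at 2-fold. A count of 0 was set to 3. Intervals are exact at 95% (Clopper-Pearson for shares, Poisson for sums, conditional binomial for ratios), and their calculation was tested on simulated data. Genes named by size are the 15 highest and 15 lowest ratios among genes with at least 300 UMIs in all and 30 in the higher group, leaving out *Xist*, Y-linked, mitochondrial and hemoglobin genes and those of ribosomal proteins. Some genes that met this rule are not reported here. Male cells had at least 2 UMIs of *Ddx3y*, *Eif2s3y*, *Kdm5d* and *Uty* together and fewer than 2 of *Xist*, and female cells the reverse. Doublets were scored with Scrublet in scanpy 1.11.5 and stayed in. The members, gene lists and alternatives were chosen with earlier results of these data known. Coordinates are those of GENCODE vM21 (GRCm38, the same as mm10), and promoters those of RefSeq. Antisense and overlapping genes were not checked. Scripts ran in Python 3.11.15, with intervals from scipy 1.17.1, tables in pandas 2.3.3, arrays in numpy 2.4.6 and plots from matplotlib 3.10.9.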

Additional observations from a re-analysis of the deposited data

How the results depend on the processing

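The number of members in the library labelled Tbx1neo2/neo2 (228) depended on the definition. It was 349 with 1 UMI per cartilage gene, 198 with 3 UMIs, 163 with 4 of the 5 genes, 510 with 2 of them and 88 after thinning. The number of genes at least 2-fold higher was 432 instead of 695 with a minimum of 100 UMIs, where 11626 genes were compared. The median log2 ratio of cartilage matrix genes outside the definition (1.28) was 1.10 with that minimum, 1.54 as a mean over cells, 1.59 for members with 4 genes, 2.72 without the 13 *Ibsp* cells and 2.29 against cells with no *Col2a1* or *Col9a3* UMI. That of fibroblast matrix genes (-1.27) was -1.58 as a mean over cells and -2.08 for members with 4 genes. The median of the 3 skeletal muscle markers took the other sign, at 2.51 against cells with 2 *Pdgfra* UMIs. Of 359 values of 30 named genes under 12 alternatives, 300 stayed within the counting interval and 59 moved outside it in the same direction. The alternatives on the *Ibsp* cells, the cells with glia markers, male cells only and comparison cells without *Col2a1* or *Col9a3* were chosen after seeing the data. No paired analysis was possible because each genotype has 1 library and no test was run. No sample could be left out for the same reason.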
